A study of Mus musculus with 5 samples.

Results

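The genes described here belong to the coagulation and plasminogen system. They are F3, Tfpi, Thbd, Procr, Fgl2, Plau, Plaur, Plat and Serping1, 9 genes chosen by name out of 32917 features that passed the filter on dim probes, and all of their probes were taken, 12 in all. Expression was measured in whole colon of 8-week-old wild-type C57BL/B6 mice on 5 single-colour Agilent arrays. In the NT-3N group, 3 mice had been injected intravenously with the IL-11 receptor agonist NT-3N, a modified human IL-11, and the colon was taken 3 hr later. The Control group held 2 mice, for which the labels name no vehicle injection, so the agonist and the injection cannot be told apart. The sources differ in the unit of the injected dose, so no dose is stated. Each array held the RNA of 1 mouse, and whole tissue cannot tell fewer cells of a type from less RNA per cell.

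Clotting starts when tissue factor, the product of F3, meets its plasma partner factor VII, and it ends in thrombin, which cuts fibrinogen into fibrin. Tissue factor pathway inhibitor, thrombomodulin and the endothelial protein C receptor restrain this cascade at the vessel wall. Fibrin is dissolved by plasmin, which the urokinase and tissue-type activators release from plasminogen and which serpins hold back. Several of these proteins also act on matrix turnover and inflammation, and most of the circulating factors are made in the liver.

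None of the 9 genes differed between NT-3N and Control at an adjusted p under 0.05 in limma. The call rate over all features was 0.125% for higher and 0.0182% for lower features. In NT-3N 6 genes had a higher mean and 3 a lower one, with a median log2 fold change of 0.25 against -0.019 over all features. At an unadjusted p under 0.05 limma found 1 gene higher, Serping1, and 0 lower, where the rates over all features were 4.95% and 4.67%. The local-pooled-error test, the kind of test named in the methods of the study, also called 0 of the 9 and put 2 of them, Serping1 and F3, at an unadjusted p under 0.05 (1.94% of all features were higher at that threshold). The groups did not overlap for 3 genes, all higher in NT-3N, and for 0 lower genes, where 13.5% and 14.8% of all features were. All 9 genes were well above background on all 5 arrays, so dim signal was not the limit for them.

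**Figure D1:**
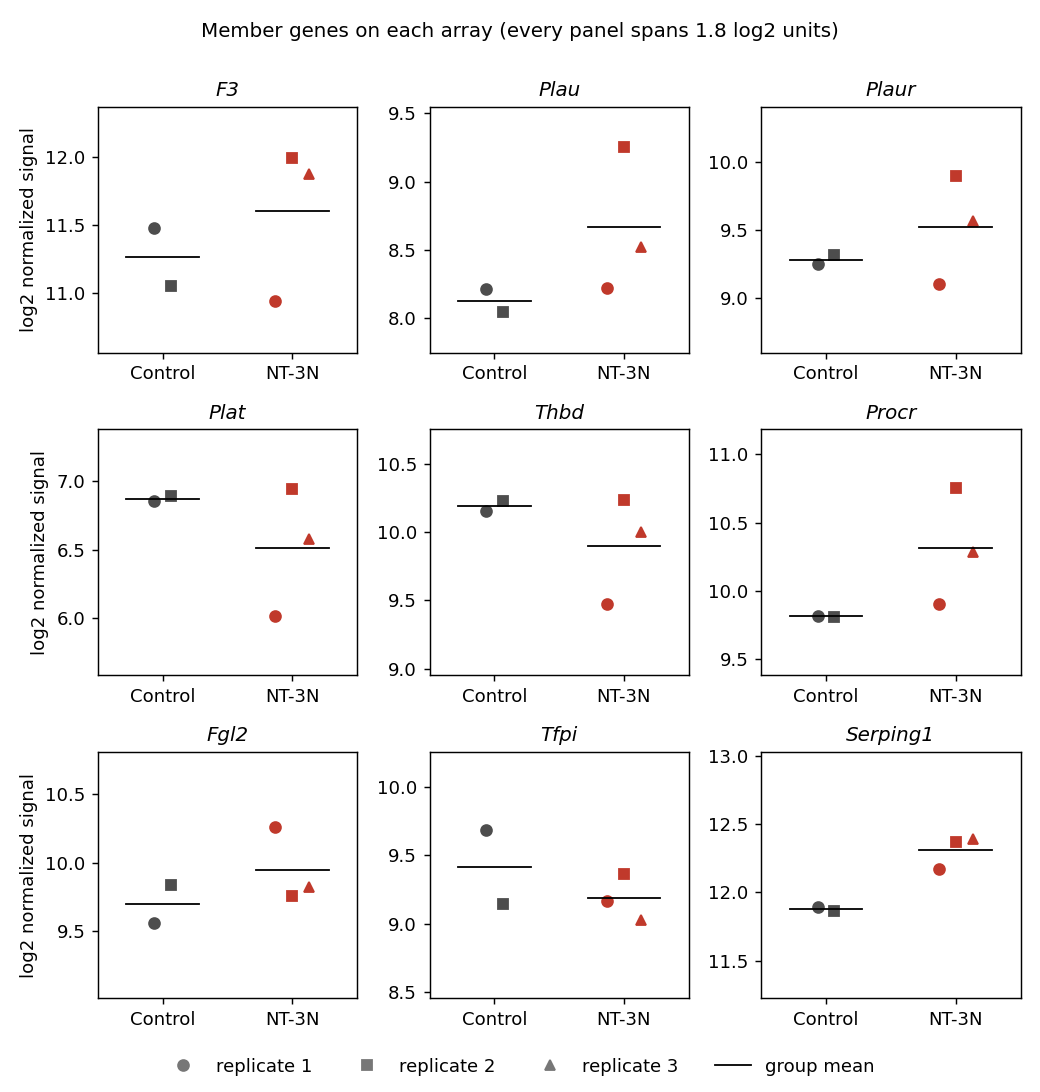
Log2 normalized signal of the 9 genes on each array, by group, with a symbol for each replicate number and a line at the group mean; every panel spans the same number of log2 units. The groups did not overlap for Plau, Procr and Serping1, and the NT-3N arrays lay widely apart for F3, Plau, Plat and Procr.

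Promoter sequence was available in the RefSeq table of build GRCm38.p6 for 5 of the 9 genes, with 6 promoters in all because Tfpi has 2. Each covers 250 bases before the start site and 50 after it. Searched for the AP-1 motif TGANTCA and the STAT motif TTCNNNGAA, each of which reads the same on both strands, 4 of the 6 held the former and 1 the latter. Of all 32851 promoters in the table, 7.81% held TGANTCA and 8.3% held TTCNNNGAA. Of 34 promoters of the wider pathway, matched for 30 of 39 genes, 8 held TGANTCA and 7 held TTCNNNGAA. These counts are of promoters, and the listed promoters of Serpinb2 overlap and share the same site of each motif. The stretches of the 4 genes with a motif are shown to set their letters side by side, and that of Pros1, from the wider pathway, because its groups lay well apart. Capitals mark the motifs, which did not overlap each other.
F3, chr3:121723370-121723429, plus strand: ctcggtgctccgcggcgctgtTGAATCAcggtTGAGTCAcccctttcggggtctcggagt
Plaur, chr7:24462387-24462446, plus strand: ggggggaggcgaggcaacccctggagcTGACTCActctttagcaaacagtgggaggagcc
Procr, chr2:155751036-155751095, plus strand: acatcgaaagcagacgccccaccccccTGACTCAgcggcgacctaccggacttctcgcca
Fgl2, chr5:21372613-21372672, plus strand: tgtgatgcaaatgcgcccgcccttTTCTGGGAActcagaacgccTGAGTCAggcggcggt
Pros1, chr16:62854189-62854248, plus strand: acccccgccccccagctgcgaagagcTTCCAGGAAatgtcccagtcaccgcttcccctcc
The TGANTCA matches of F3 began 146 and 135 bases before the start site, that of Plaur 69 bases and that of Procr 154 bases before it. In Fgl2 the STAT motif began 36 and the AP-1 motif 16 bases before the start site. Neither promoter of Tfpi held either motif. A match is a description of these letters and does not show that a factor binds there.

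F3 encodes tissue factor, the cell-surface initiator of clotting. Its log2 signal was 11.48 and 11.06 on the Control arrays and 10.94, 11.99 and 11.88 on the NT-3N arrays. NT-3N replicates 2 and 3 lay above both Control arrays and NT-3N replicate 1 below them, so the groups overlapped. The group means were 11.27 ± 0.30 (SD, n = 2) and 11.60 ± 0.57 (SD, n = 3), which differed by 0.34 ± 0.32 (SE) on the log2 scale (limma adjusted p = 0.77). The 95% interval ran from -0.44 to 1.12 on the log2 scale, or from 0.736-fold to 2.17-fold. Without NT-3N replicate 1 the log2 fold change was 0.67 (limma unadjusted p = 0.0055, adjusted p = 0.16). Leaving out Control replicate 2 instead gave 0.13.

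Tfpi, which encodes the inhibitor of the tissue factor pathway, was measured by 3 probes, and they did not move together. The brightest probe, A_52_P670263, gave log2 signals of 9.69 and 9.15 in Control and 9.16, 9.37 and 9.02 in NT-3N. Its groups overlapped, with a log2 fold change of -0.23 ± 0.19 (SE) and a limma adjusted p of 0.73. Dropping Control replicate 1 gave 0.037, and dropping Control replicate 2 gave -0.50. The probe A_55_P2506165, which is listed under another RefSeq transcript of the gene, gave 9.08 and 8.96 in Control and 9.10, 9.38 and 9.56 in NT-3N. Its NT-3N arrays all lay above Control, with a log2 fold change of 0.33 ± 0.15 (SE) and a limma adjusted p of 0.57 among all probes. The remaining probe, A_52_P631889, is listed under the same transcript as the second and had a log2 fold change of 0.012 ± 0.20 (SE). Taken within each array, the brightest probe minus A_55_P2506165 was 0.61 and 0.19 in Control and 0.061, -0.011 and -0.54 in NT-3N. The pair was chosen after its values were seen, so these differences are a description with no test. The mean of the probes had a log2 fold change of 0.036.

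**Figure D2:**
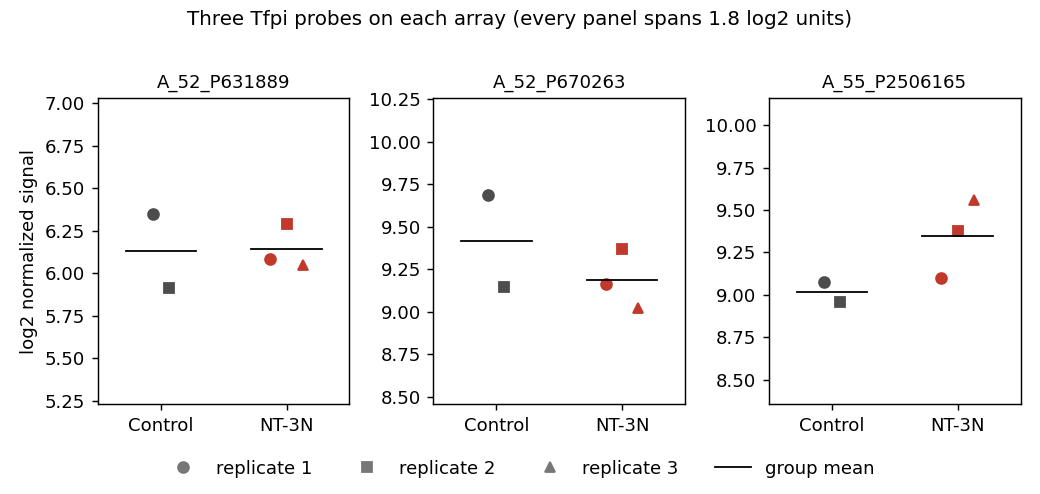
Log2 normalized signal of the 3 Tfpi probes on each array, by group, with a symbol for each replicate number and a line at the group mean; every panel spans the same number of log2 units. The probe A_52_P670263 had its highest value in Control replicate 1, while A_55_P2506165 was higher on all NT-3N arrays than on both Control arrays.

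Thbd encodes thrombomodulin, the endothelial receptor that turns thrombin towards protein C. The Control arrays gave log2 signals of 10.16 and 10.23, the NT-3N arrays 9.47, 10.23 and 10.00. NT-3N replicate 1 stood lowest and replicate 2 reached the level of the controls. Thbd had a log2 fold change of -0.29 with a 95% interval from -0.82 to 0.24 and a limma adjusted p of 0.71, and dropping 1 array moved it to as low as -0.46 (NT-3N replicate 2) and as high as -0.076 (NT-3N replicate 1).

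Procr encodes the endothelial protein C receptor, which presents protein C to that complex. On the log2 scale it stood at 9.82 and 9.81 in Control and at 9.90, 10.76 and 10.29 in NT-3N. All 3 NT-3N arrays lay above both controls, but NT-3N replicate 1 by less than 0.1. The means were 9.81 ± 0.0078 (SD, n = 2) and 10.32 ± 0.43 (SD, n = 3). They differed by 0.50 on the log2 scale with a 95% interval from -0.069 to 1.07 and a limma adjusted p of 0.57. Without NT-3N replicate 1 it was 0.71 (limma unadjusted p = 0.0063, adjusted p = 0.17), and without NT-3N replicate 2 it was 0.28. Thbd and Procr, which act in the same anticoagulant step, had differences of opposite sign, and both 95% intervals included 0.

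Fgl2 encodes a fibrinogen-like protein with a membrane form that cleaves prothrombin and a secreted form that acts on immune cells. Its log2 signal was 9.56 and 9.84 in Control and 10.26, 9.76 and 9.82 in NT-3N. It was the only one of the 9 genes that was highest on NT-3N replicate 1 among the NT-3N arrays. Fgl2 had a log2 fold change of 0.25 with a 95% interval from -0.19 to 0.69 and a limma adjusted p of 0.70. Dropping NT-3N replicate 1 gave 0.094, dropping Control replicate 1 gave 0.11 and dropping Control replicate 2 gave 0.39.

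Plau encodes urokinase, the plasminogen activator of cell surfaces and matrix. Log2 signals of 8.21 and 8.04 were read in Control and 8.22, 9.25 and 8.52 in NT-3N. The groups did not overlap, but NT-3N replicate 1 was at the level of Control replicate 1, and NT-3N replicate 2 carried most of the rise in the mean. Plau had a log2 fold change of 0.54, the highest of the 9 genes, with a 95% interval from -0.17 to 1.25 and a limma adjusted p of 0.62. It was 0.76 without NT-3N replicate 1 (limma unadjusted p = 0.024, adjusted p = 0.25) and 0.24 without NT-3N replicate 2. The other Plau probe was well above background on 0 of 5 arrays and gave no value.

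Plaur encodes the receptor that holds urokinase on the cell surface. It gave log2 signals of 9.25 and 9.32 in Control and 9.11, 9.90 and 9.56 in NT-3N, so that the groups overlapped through NT-3N replicate 1. Plaur had a log2 fold change of 0.24 with a 95% interval from -0.30 to 0.78 and a limma adjusted p of 0.77. Without NT-3N replicate 1 it was 0.45 (limma unadjusted p = 0.020, adjusted p = 0.24), and without NT-3N replicate 2 it was 0.052.

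Plat encodes the tissue-type plasminogen activator, the chief activator in blood. It stood at log2 signals of 6.86 and 6.89 in Control and 6.01, 6.95 and 6.58 in NT-3N. Replicate 2 of NT-3N was above both controls and the other NT-3N arrays below them. Plat had a log2 fold change of -0.36, the lowest of the 9 genes, with a 95% interval from -1.03 to 0.31 and a limma adjusted p of 0.72, and it was -0.11 without NT-3N replicate 1 and -0.58 without NT-3N replicate 2.

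Serping1 encodes C1 inhibitor, a serpin that blocks the early proteases of complement and of the contact pathway, including kallikrein and factor XII. Its log2 signal was 11.89 and 11.87 in Control and 12.17, 12.37 and 12.39 in NT-3N. All NT-3N arrays lay above both controls. The means were 11.88 ± 0.020 (SD, n = 2) and 12.31 ± 0.12 (SD, n = 3), a difference larger than the spread within either group. On the log2 scale they differed by 0.43 ± 0.097 (SE), a 1.35-fold difference, with a 95% interval from 0.20 to 0.66. Its limma unadjusted p was 0.0038 and its adjusted p 0.25, so it did not pass over all features. The unadjusted p stayed under 0.05 in all 18 alternatives, with log2 fold changes from 0.39 to 0.50 and adjusted p from 0.078 to 0.74. Of the 9 genes Serping1 had the smallest standard error.

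The genes with the pattern most like that of Serping1, by the root mean square difference of log2 values centred over the 5 arrays, were Snhg5 with 0.017, Cmtr2 with 0.022 and Ankrd39 with 0.023. They were the nearest of 16659 genes outside the lists that had a symbol and lay well above background on all arrays. Their log2 fold changes were 0.42, 0.41 and 0.40, with limma adjusted p of 0.25, 0.35 and 0.34.

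**Figure D3:**
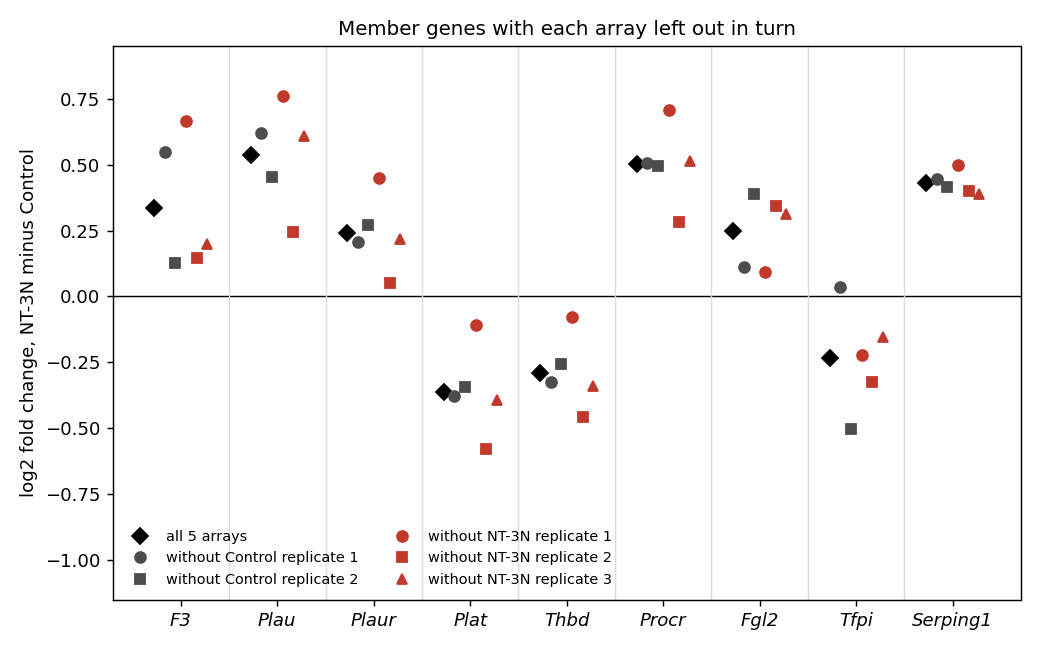
Log2 fold change of NT-3N against Control for the 9 genes with all 5 arrays (diamonds) and with each array left out in turn (grey for a Control array, red for an NT-3N array). Leaving out NT-3N replicate 1 raised the values of F3, Plau, Plaur, Plat, Thbd and Procr, while Serping1 stayed between 0.39 and 0.50.

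NT-3N replicate 1 was the lowest and replicate 2 the highest of the NT-3N arrays for 6 of the 9 genes, which were F3, Plau, Plaur, Plat, Thbd and Procr. Over all features this order held for 17.3%. Their range over the NT-3N arrays lay between 0.76 for Thbd and 1.05 for F3 on the log2 scale, against 0.22 for Serping1. Without NT-3N replicate 1, 5 genes were higher at an unadjusted p under 0.05 in limma, F3, Plau, Plaur, Procr and Serping1, where 7.62% of all features were. None of the 9 passed an adjusted p of 0.05 there. Without NT-3N replicate 2 only Serping1 was, where 3.03% of all features were. With array quality weights 3 genes were higher, Plau, Procr and Serping1, where 7.24% of all features were. Without Control replicate 2, Tfpi was the 1 lower gene, where 2.7% of all features were.

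Markers of cell types that make these proteins were read on the same arrays. Over all features, 40.3% were lowest on NT-3N replicate 1 among the NT-3N arrays. All 6 fibroblast markers were well above background on all arrays and lowest on NT-3N replicate 1 among the NT-3N arrays. The summed linear signal of the fibroblast markers was 50832 and 44103 in Control and 45120, 66304 and 58744 on NT-3N replicates 1, 2 and 3. All 5 macrophage markers were likewise well above background and lowest on NT-3N replicate 1, with a sum of 9465 and 8910 in Control and 7532, 10721 and 10248 in NT-3N. The 6 endothelial markers, also above background throughout and lowest on NT-3N replicate 1 for 3 of 6, summed to 1868 and 1775 in Control and 1760, 2117 and 1877 in NT-3N. The smooth muscle sum, at 416913 and 435105 in Control and 311752, 392056 and 365117 in NT-3N, and the platelet sum, at 1742 and 1658 in Control and 1377, 2782 and 2188 in NT-3N, also were lowest on NT-3N replicate 1 and highest on replicate 2. The sums of these 5 lists thus had the same order among the NT-3N arrays as these 6 genes. The other marker lists that were read had other orders. The epithelial sum was 435825, 415453 and 389063 on NT-3N replicates 1, 2 and 3, and the neutrophil sum was also highest on replicate 1. The part of the cell types in the genes' values was not tested. The platelet sum rests on Pf4, well above background on all arrays, and Itga2b, well above it on 1 of 2 Control and 3 of 3 NT-3N arrays. Their log2 fold changes were 0.26 and 0.64, with limma adjusted p of 0.80 and 0.70, and Gp1ba, Gp9 and Ppbp were not well above background on any array.

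Several markers also differed between the groups without overlap, as Serping1 and Pros1 did, and 0 of them passed an adjusted p of 0.05 in limma. For comparison, 13.5% of the full feature set rose without overlap and 14.8% fell without it. The limma unadjusted p was under 0.05 for 4.95% that rose and 4.67% that fell. Of the 6 fibroblast markers, Pdpn gave log2 signals of 10.33 and 10.66 in Control and 11.67, 12.13 and 12.16 in NT-3N, a log2 fold change of 1.49 (limma adjusted p = 0.067). Dcn was higher by 0.32 (limma unadjusted p = 0.043, adjusted p = 0.50), and the other 4 overlapped. Of the 6 endothelial markers, Pecam1, Cdh5 and Erg were higher without overlap, with log2 fold changes of 0.10, 0.24 and 0.35. All 5 smooth muscle markers had a lower mean, 4 of them without overlap (Myh11, Des, Tagln and Cnn1) and 2 at an unadjusted p under 0.05 in limma. The red cell markers Hba-a1, Hbb-bt and Alas2 were higher on all NT-3N arrays, with log2 fold changes of 0.40, 0.38 and 0.35 and limma adjusted p of 0.39, 0.38 and 0.70. The neutrophil markers S100a8 and S100a9 were not well above background in Control and passed the filter on dim probes only through NT-3N. Against the lowest signal that counted as well above background, they were at least 3.61-fold and 13.9-fold higher in NT-3N. Their limma adjusted p of 0.22 and 0.062 used the measured Control signals and do not belong to these bounds. Csf3r, with log2 signals from 15.96 to 16.25, had a log2 fold change of -0.16. Whether this bright signal came from neutrophils was not examined. Ly6g and Cxcr2 could not be tested. Of the 4 B cell markers, Ms4a1 gave 4.95 and 6.53 in Control and 9.54, 9.13 and 9.51 in NT-3N, a log2 fold change of 3.65 (limma adjusted p = 0.059). The other 3 overlapped, and the B cell sum was 899 in Control replicate 2 and between 3572 and 4154 on the other arrays. The part of these markers in the values of Serping1 and Pros1 was not tested. All 5 epithelial markers were well above background on every array. Mesothelial and fat markers varied between arrays of 1 group, with a fat sum from 1323 to 11770 in Control and from 416 to 7251 in NT-3N.

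The smallest change that limma could call at each gene's own error was computed from the largest p among the called features. It was 0.88 on the log2 scale (1.84-fold) for Serping1, between 1.65 and 2.15 for Fgl2, Tfpi, Thbd, Plaur and Procr, and between 2.53 (5.79-fold) and 2.95 (7.72-fold) for Plat, Plau and F3. These sizes rest on the error seen for each gene and on the calls in these same data. A gene that was not called thus lies under its size by construction, and the sizes are no independent limit of detection. A missed threshold does not show that the level stayed the same.

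The wider pathway was read from a list of 39 further genes. Of these, 13 could not be tested because no probe was well above background on at least 2 arrays. They include all 3 fibrinogen chains Fga, Fgb and Fgg, the factors F8, F9, F11, F12 and F13b, the inhibitors Serpind1, Serpina5 and Serpina10, and Serpinb2 and A2m. Of the 26 tested, 17 had a higher and 9 a lower mean in NT-3N, with a median log2 fold change of 0.084. At an adjusted p under 0.05 limma called 0 of them, as did the local-pooled-error test, which put 4 at an unadjusted p under 0.05. At an unadjusted p under 0.05 limma found 3 higher and 0 lower, where 4.95% and 4.67% of all features were (6 higher with no filter on dim probes, where 4.18% of all features were). They include Pros1 and Kng1, of which Kng1 passed the filter on dim probes only through the NT-3N arrays.

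**Figure D4:**
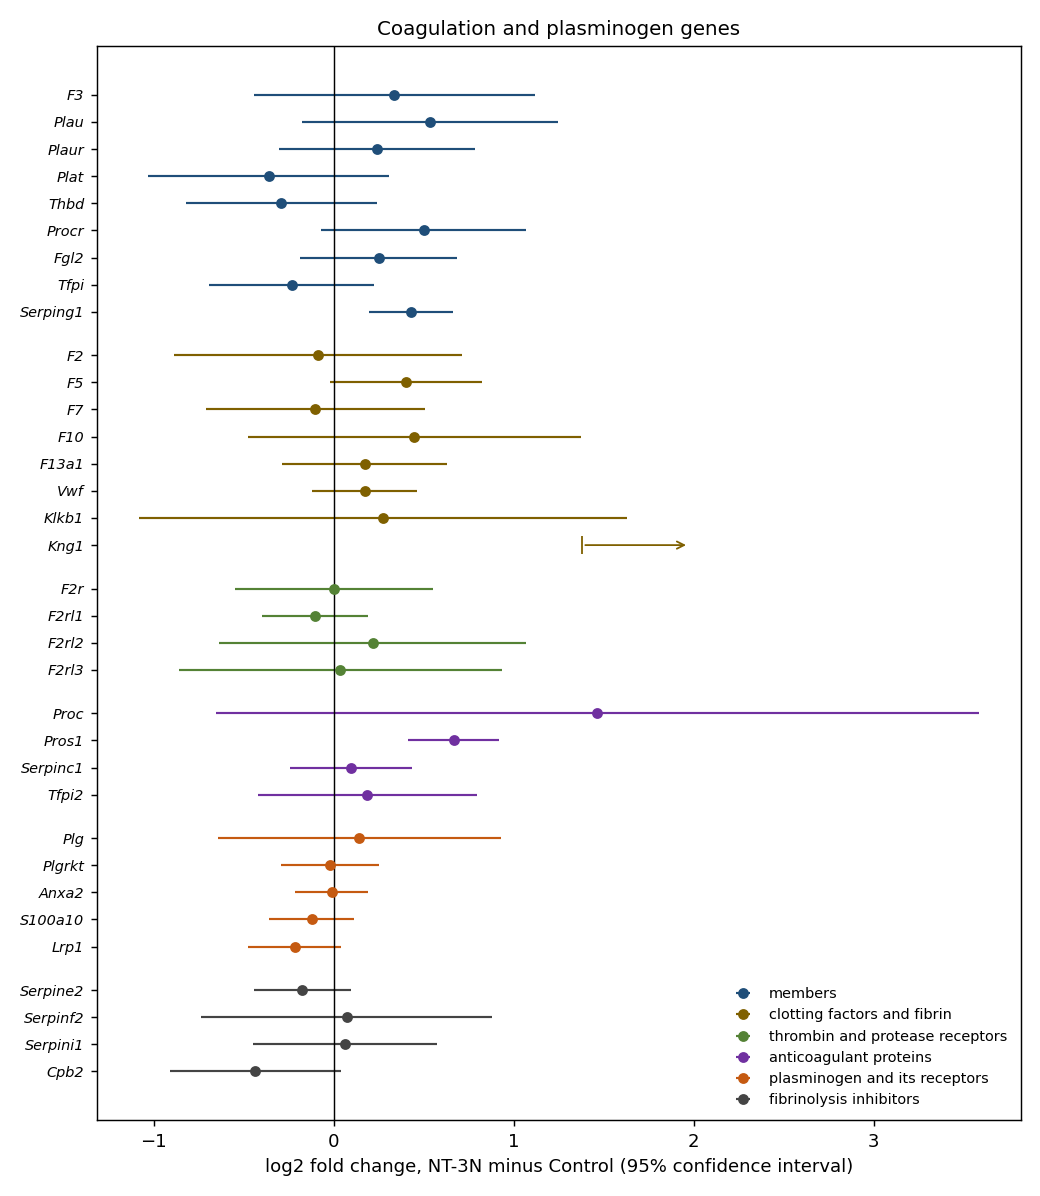
Log2 fold change of NT-3N against Control with 95% confidence intervals from limma for the 9 genes and 25 tested genes of the wider pathway, grouped by role; for Kng1, not well above background in Control, an arrow starts at the lower bound of its change. The intervals of Serping1 and Pros1 lay above 0 before adjustment for multiple tests.

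Among the inhibitors of fibrinolysis, Serpine2, Serpinf2 and Serpini1 had log2 fold changes of -0.17, 0.072 and 0.062. Cpb2, which encodes a carboxypeptidase that shields fibrin from plasmin, had -0.43 (limma unadjusted p = 0.067, adjusted p = 0.56).

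Pros1 encodes protein S, the cofactor of activated protein C and of the tissue factor pathway inhibitor. Pros1 stood at log2 signals of 10.93 and 10.75 in Control and 11.40, 11.54 and 11.58 in NT-3N, and the groups lay well apart. It was 1.59-fold higher, a log2 fold change of 0.67 ± 0.10 (SE), with a limma unadjusted p of 0.00056 and an adjusted p of 0.12. It passed an adjusted p of 0.05 in 1 of 18 alternatives, array quality weights (0.039), and the log2 fold change ranged from 0.58 to 0.75 over all of them. Of the other anticoagulant genes, Serpinc1, which encodes antithrombin, had 0.096 and Tfpi2 had 0.19. Proc, which encodes protein C, had a log2 signal of 4.99 in Control replicate 1 and between 8.09 and 8.38 on the other 4 arrays, so its log2 fold change of 1.47 (limma adjusted p = 0.65) rested on 1 Control array. Proc was called higher in limma when Control replicate 2 was left out, which leaves that array as the lone control.

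Kng1 encodes kininogen, the cofactor of the contact pathway and source of bradykinin. No Control array (0 of 2) and all NT-3N arrays (3 of 3) read it well above background, with log2 signals of 4.92, 4.21 and 5.09 in the latter. Kng1 thus passed the filter on dim probes only through the NT-3N arrays. Set against the lowest signal that counted as well above background, NT-3N was at least 2.60-fold higher. The limma adjusted p of 0.11 was computed from the measured Control signals, which were not well above background, and does not belong to this bound. With normexp background correction, which adds an offset of 50 to every signal, the log2 fold change was 0.44 (limma adjusted p = 0.41), under that bound. Kng2 is a close paralog, and whether the probe also detects it was not examined. Klkb1, which encodes the prekallikrein that kininogen carries, had a log2 fold change of 0.27 and a limma adjusted p of 0.90.

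Among the clotting factors that could be measured, F5 had a log2 fold change of 0.40 (limma unadjusted p = 0.059, adjusted p = 0.54) and did not overlap between the groups. F10, Vwf and F13a1 had 0.45, 0.17 and 0.17, and F2 and F7 had -0.087 and -0.10, with limma adjusted p between 0.69 and 0.95. The 4 receptors for thrombin and related proteases, F2r, F2rl1, F2rl2 and F2rl3, had log2 fold changes from -0.10 to 0.22, and limma found 0 of them at an unadjusted p under 0.05. Plg, the gene for plasminogen itself, had log2 signals of 5.10 and 4.67 in Control and 5.05, 4.58 and 5.46 in NT-3N, which overlapped. Its log2 fold change was 0.14 with a limma adjusted p of 0.91. Lrp1, which encodes a receptor that clears protease and inhibitor complexes, had -0.22 (limma unadjusted p = 0.086, adjusted p = 0.59). Its NT-3N arrays all lay below Control, as they did for Serpine2. Of the 26 tested genes of the wider pathway, 4 were higher and 2 lower without overlap, where 13.5% and 14.8% of all features were. The plasminogen receptor genes Plgrkt, Anxa2 and S100a10 had log2 fold changes of -0.021, -0.010 and -0.12. Their standard errors of 0.11, 0.084 and 0.098 were among the smallest of the pathway, and the 95% interval of Anxa2 ran from -0.21 to 0.19.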

How the data were processed

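The authors scanned the Cy3 arrays with Agilent Feature Extraction 11.0.1.1. The deposited intensity values are background-subtracted and detrended and had not been scaled between arrays. The authors also deposited a log2 table of quantile-normalized signal for 37380 probes, used here only as an alternative. The arrays shared 1 slide and 1 scan time. Control spots and outlier flags (69 to 184 of 59305 spots per array) were left out, processed signal was log2-transformed, spots of a probe were averaged and arrays were quantile-normalized. Probes well above background on at least 2 arrays were kept, and 32994 of 56605 probes were named through a RefSeq table of assembly GRCm38.p6. The brightest probe represented a gene.

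NT-3N was tested against Control by limma 3.58.1 under R 4.3.3 (lmFit, eBayes with an intensity trend, two-sided, Benjamini-Hochberg over 32917 features), in place of the local-pooled-error test of the study, which was an alternative. The test was checked on simulated data. All 9 genes are named. From the list of 39 pathway genes, Plg and those at an unadjusted p under 0.05 are named, with values of others for context. The counts cover the whole list, of which 1 gene is not reported here. The 3 genes of like pattern were taken for the gene with the smallest p. Members, lists, motifs and rules were chosen with earlier results of these data known. The replicates were separate mice, and the precision is limited by the number of arrays, 5.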

Additional observations from a re-analysis of the deposited data

How the results depend on the processing

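In all 18 alternatives 0 of the 9 genes were called higher and 0 lower at an adjusted p under 0.05. Several alternatives called almost nothing over all features, so the 0 there says little about the 9 genes. Limma called 0 features with the replicate block and without NT-3N replicate 3, and 1 without NT-3N replicate 2. It called 2 with no filter on dim probes and 2 with no intensity trend. The most called was 348 of 32917, with the local-pooled-error test. At an unadjusted p the 1 higher gene became 3 with array quality weights (7.24% of all features) and 2 with the local-pooled-error test, and 1 to 5 without each array in turn, the 5 without NT-3N replicate 1. The 0 lower genes became 0 to 1, the 1 being Tfpi without Control replicate 2 (-0.50). Of the wider pathway, 1 was called at an adjusted p with array quality weights (Pros1) and 1 without Control replicate 2 (Proc), and the 3 higher at an unadjusted p became 6 with no filter on dim probes, where more genes are tested. The 0 lower genes of the 26 tested became 1 with normexp background correction and 1 with array quality weights. They became 0 to 2 without each NT-3N array in turn, the 2 without NT-3N replicate 1. With normexp 7.4% of all features lay at an unadjusted p under 0.05 in either direction, and with array quality weights 14.5%. Without NT-3N replicate 1 that share was 15.8%. Signs turned for Tfpi with the mean of the probes (0.036) and for Plg with the replicate block (-0.073). Without each array in turn Tfpi ranged from -0.50 to 0.037, turning without Control replicate 1, and Plg from -0.073 to 0.37, turning without Control replicate 2 (-0.073) and NT-3N replicate 3 (-0.073). The cause was not tested. Kng1 had no value with the deposited log2 values or where probes had to be well above background on all arrays. A block for slide or scan could not be run with 1 slide and 1 scan. Where a fit leaves 1 Control array, that array is taken to have the spread of the NT-3N group.

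The labels name no pairing of mice by replicate number. Same-numbered arrays, each centred on its group mean, had correlations of 0.13 (number 1) and 0.036 (number 2). With 2 Control arrays the centred Control values mirror each other, so these correlations cannot decide whether mice were paired. With the replicate block limma called 0 of the 9 genes and 0 of all features. It put 1 gene and 2 of the wider pathway higher at an unadjusted p under 0.05. With this block 7.56% of all features lay under that threshold in either direction. The 2 were Pros1 and Kng1, and Kng1 passed the filter on dim probes only through the NT-3N arrays.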
